A study of Danio rerio with 12 samples.

Results

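Regions of open chromatin that only head osteoblasts held among their strongest signals were examined in bone- and cartilage-forming cells of 15-day-old zebrafish (days post fertilisation). Summits of 12 ATAC-seq libraries lying within 250 bp of each other had been chained into regions, and from each library the strongest 8407 summits were kept, which is the length of the shortest list. A group held a region when at least 2 of its 3 libraries had such a kept summit in it, and the members are the regions held by head osteoblasts and by none of the other 3 groups. There were 1469 members among 13540 regions held by at least 1 group and 133213 regions in all. The choice used the values of all 12 libraries, so ranks and occupancy of the members are given as a description and without a test.

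All cells came from wild-type fish that carried entpd5a:Gal4FF;UAS:GFP and R2col2a1a:mCherry, so that every group shares both reporters. Head osteoblasts, which the labels call classical, and trunk osteoblasts, which they call non-classical, were sorted as GFP positive and mCherry negative. Head chondrocytes and trunk chondrocytes were sorted as GFP negative and mCherry positive. Each group had 3 libraries labelled as biological replicates, and pooling of fish within a library is not stated. Replicate 1 of 3 groups (head osteoblasts, trunk osteoblasts, trunk chondrocytes) had lost its original files and is represented from a later processing step, and trunk chondrocyte replicate 3 had by far the shortest list. Cell identity rests on the reporters, because marker genes were not analysed here.

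Osteoblasts lay down and mineralise bone matrix, and chondrocytes make cartilage. The reporter gene entpd5a encodes an enzyme needed for mineralisation in zebrafish, and besides osteoblasts it is active in segments of the notochord sheath, where the vertebral bodies begin to form. Much of the head skeleton arises from neural crest mesenchyme, whereas the trunk skeleton arises from the somites and the notochord. ATAC-seq marks promoters and distal elements where transposase can reach DNA, and distal elements are known to differ more between cell types than promoters do. A summit is the base of highest signal in a called peak, and its rank is its place in its own library by the peak caller's score, with 1 the strongest.

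Head osteoblasts alone held 1469 regions, or 10.8% of the 13540 held regions, more than trunk osteoblasts alone (1018), head chondrocytes alone (990) or trunk chondrocytes alone (942). The members made up 17.9% of the 8225 regions that head osteoblasts held at all. The same share was 12.9% for trunk osteoblasts, 12.1% for head chondrocytes and 11.9% for trunk chondrocytes. Head and trunk osteoblasts together held another 1311 regions that no chondrocyte group held, and 4088 regions were held by all 4 groups. Leaving out 1 head osteoblast library at a time, so that both remaining libraries had to hold a region, gave 934, 833 and 932 members without replicates 1, 2 and 3. Without trunk osteoblast replicate 3, the library of the other groups that most often shared the members, there were 1912. Using only the libraries described without file loss gave 1211, of which 934 were among the 1469.

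**Figure D1:**
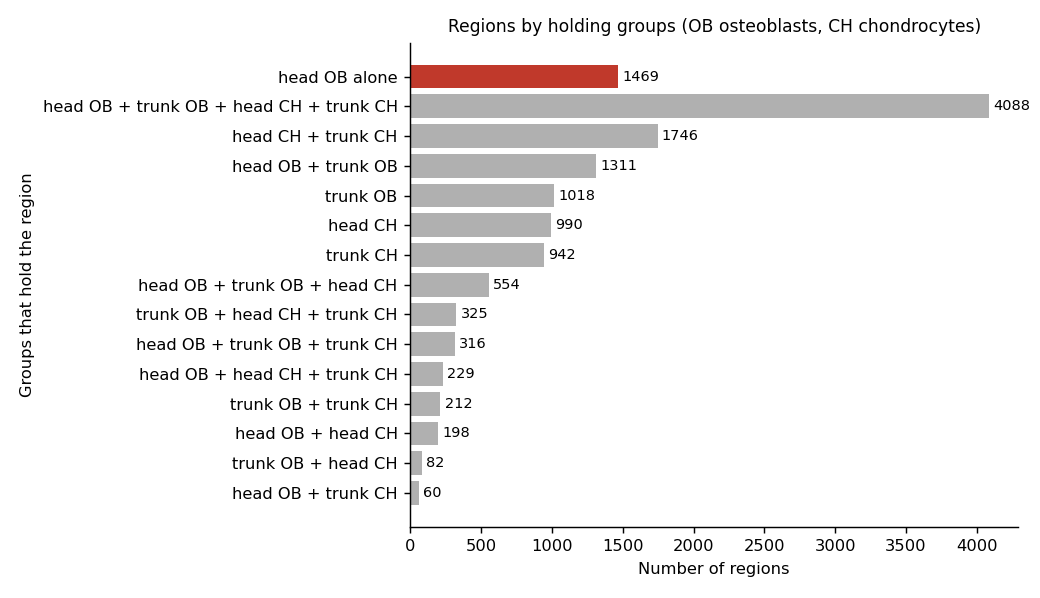
Number of regions (x axis) for each combination of groups that held them (y axis), at 8407 summits per library. The 1469 regions of head osteoblasts alone (red) outnumber those of each other group alone and are fewer than the 4088 regions of all 4 groups.

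The members lay in the lower part of the kept head osteoblast lists. The median rank of the members was 6686 in replicate 1, 6627 in replicate 2 and 6855 in replicate 3, whereas regions held by all 4 groups had medians of 2273, 2243 and 2213 in the same libraries. The rule keeps at least 2 of the 3 ranks of a member within 8407, and the full lists held 28911, 78652 and 60979 summits. Of the 1986 head osteoblast regions whose second best rank among the 3 libraries was at most 2000, 7 were members (0.352%). The share was 5.14% between 2000 and 4000, 19.6% between 4000 and 6000, and 41.5% between 6000 and 8407. The last of these intervals held 980 of the members (66.7%). Membership uses the same cut in head osteoblasts and in the other groups, so this gradient follows in part from the rule. The other sets were not split by rank here.

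A kept summit was present in all 3 head osteoblast libraries for 615 members (41.9%), against 76.8% of all regions that head osteoblasts held. The like share, in a group's own 3 libraries, was 30.5% for trunk osteoblasts alone, 44.5% for head chondrocytes alone and 30.3% for trunk chondrocytes alone. The share of the members thus lay within the range of the other sets held by 1 group alone. The other 854 members had a kept summit in 2 libraries, and replicate 1 was the missing library for 319, replicate 2 for 218 and replicate 3 for 317. In 829 of these 854 cases (97.1%) the missing library had a weaker summit in the region, at a median rank of 10490. A kept summit in all 3 libraries was present in 6 of 7 members at a second best rank up to 2000, 93 of 99 up to 4000, 276 of 383 up to 6000 and 240 of 980 beyond it. The same cut limits the second best and the worst rank, so this order follows in part from the rule. Replicates 1, 2 and 3 had kept summits in 78.3%, 85.2% and 78.4% of the members, shares that the rule of 2 libraries in part sets.

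The cut on list length runs through a continuous range of ranks. Just inside it, the region on chromosome 20 from 35171143 to 35171498 (GRCz11) had ranks of 15376, 8405 and 7455 in head osteoblast replicates 1, 2 and 3. Just outside it, the region on chromosome 13 from 12061283 to 12061432 had ranks of 15749, 7666 and 8411 and was not a member. Membership of these regions turned on a few places in 1 library. Likewise, chromosome 23, 18944389 to 18944412, was inside with ranks of 10204, 8400 and 5424 in head osteoblasts, and chromosome 8, 43429057 to 43429164, was outside with ranks of 9454, 8411 and 8048. In 407 members (27.7%) the second best head osteoblast rank fell within the last 10% of the kept list. In 266 members (18.1%) the best second best rank among the other groups lay within 10% beyond the cut. That rank was at least 2 times the head osteoblast one in 686 members (46.7%) and at least 4 times in 234 (15.9%). Both counts include members where no other group had 2 libraries with a summit. These shares were not computed for all held regions or for the other sets, and the rule limits them.

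In the full lists the members were seldom without a summit of another group, and so were the regions held by each other group alone. A member had a summit in a median of 7 of the 9 libraries of the other groups, and 5 members (0.340%, exact 95% binomial interval 0.111 to 0.793%) had none. That interval covers counting error only and not the spread between libraries, since regions are not replicates. Among all regions held by 1 group alone, the members included, 0.430% had no summit of another group. Trunk osteoblasts alone had 9 such regions of 1018 (0.884%), head chondrocytes alone 1 of 990 (0.101%) and trunk chondrocytes alone 4 of 942 (0.425%). The share of the members was near that of all regions held by 1 group alone. Without trunk osteoblast replicate 3, 62 of 1912 regions (3.24%) had no other summit. The share was 0.214%, 0.120% and 0.215% without head osteoblast replicates 1, 2 and 3. Among the strongest 8407 summits, 651 members (44.3%) had none in any library of the other groups, against 49.2% of all regions held by 1 group alone.

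**Figure D2:**
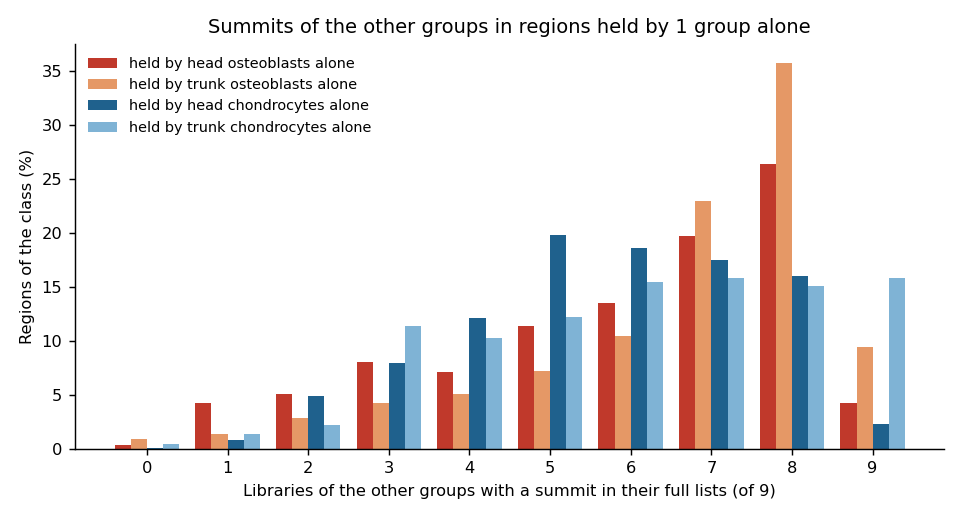
Share of the regions held by 1 group alone (y axis, percent of the class) by how many of the 9 libraries of the other groups have a summit there in their full lists (x axis). Of the 1469 head osteoblast members, 5 have a summit in none and 62 in all 9.

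By median rank, trunk osteoblasts came closest to head osteoblasts at the members, ahead of head chondrocytes (21107, 22837 and 21993 in replicates 1, 2 and 3). A summit in all 3 full lists was less frequent for trunk osteoblasts, at 771 members (52.5%), than for head chondrocytes, at 968 (65.9%). The shortest head chondrocyte list had 46446 summits. Full trunk osteoblast lists had a summit in 59.6%, 77.2% and 97.7% of the members in replicates 1, 2 and 3, with lists of 20380, 24798 and 64219 summits. Over all held regions these shares were 76.3%, 81.6% and 93.6%. The members thus lay below all held regions in replicates 1 and 2 and slightly above them in replicate 3. The median rank of the members in these libraries was 16298, 13934 and 10471, counting a member without a summit as beyond the end of the list. Replicate 3, with the longest of the 3 lists, was the nearest library also among the kept summits, which are equal in number in every library. They covered 404 members (27.5%), against 132 (8.99%) in replicate 1 and 152 (10.3%) in replicate 2. The kept share over all held regions was 57.9% in replicate 3, 55.0% in replicate 1 and 57.3% in replicate 2, and the rule limits it for the members. Altogether 688 members (46.8%) had a kept summit in exactly 1 trunk osteoblast library, 1 short of the number at which trunk osteoblasts would have held the region. This count was not made for the other sets, so it is not read as a trait of the members. Trunk chondrocyte replicates 1, 2 and 3 kept a summit in 13.3%, 20.7% and 9.29% of the regions of head chondrocytes alone. Head osteoblast replicates 1, 2 and 3 kept one in 14.6%, 9.14% and 8.84% of those of trunk osteoblasts alone. Head chondrocyte replicates did so in 17.5%, 10.5% and 4.25% of those of trunk chondrocytes alone.

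Most chondrocyte libraries had few of the members among their strong summits. Head chondrocyte replicates 1, 2 and 3 kept a summit in 2.11%, 2.65% and 9.46% of the members, and trunk chondrocyte replicates 1, 2 and 3 in 3.13%, 1.91% and 6.33%. Over all held regions the kept shares were 59.6%, 59.1% and 59.3% in head chondrocytes and 58.1%, 59.3% and 51.2% in trunk chondrocytes, whereas the rule limits those of the members. The members' shares lay below those of all 3 trunk osteoblast libraries except in head chondrocyte replicate 3, which lay between trunk osteoblast replicates 1 and 2. In full lists the head chondrocyte shares were 87.1%, 75.3% and 70.7%, from lists of 79517, 51158 and 46446 summits. The trunk chondrocyte shares were 45.3%, 72.9% and 6.33%, from lists of 27334, 55274 and 8407 summits. The shares in full lists follow list length in part, and the depth of the libraries is unknown, so a missing summit is not evidence of closed chromatin. At all regions held by some group, full lists of the 6 chondrocyte libraries had a summit in between 51.2% and 96.5%.

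**Figure D3:**
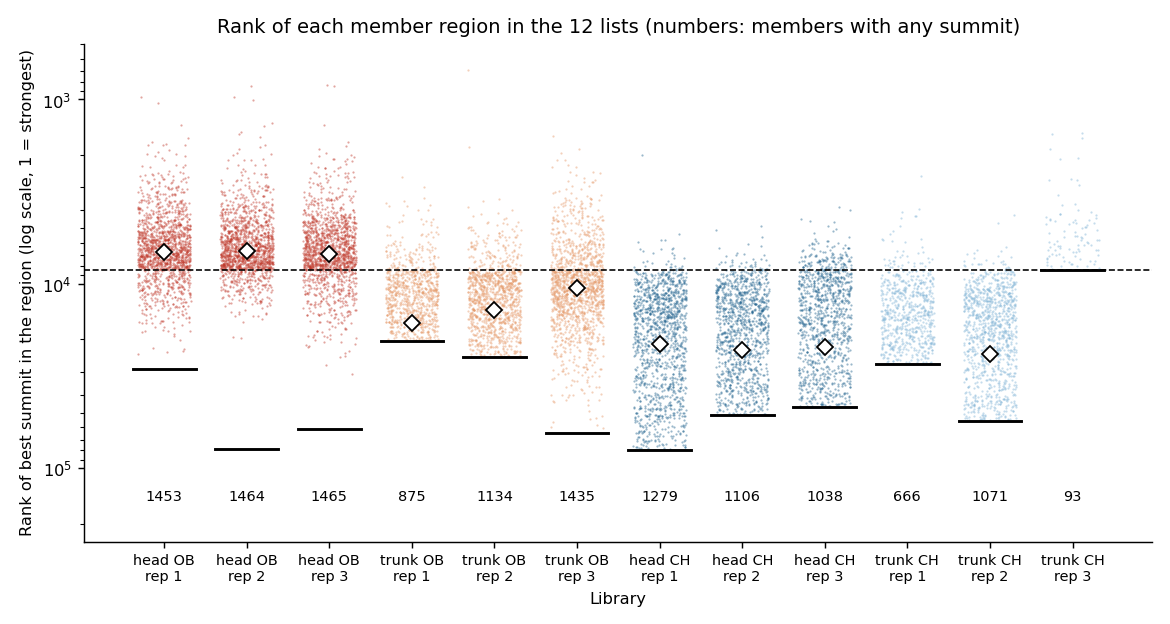
Rank of the best summit of each member (y axis, log scale, strongest at the top) in each of the 12 libraries (x axis), 1 point per member. The dashed line is the cut at 8407, the black bar the end of the library's list, the diamond the median with members without a summit counted beyond the list (drawn where it falls within the list) and the number the members with any summit. Head osteoblast medians lie above the cut and trunk osteoblast replicate 3, at 10471, lies nearest below it.

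The order of ranks was also compared within each member, counting a library without a summit there as behind. Only 62 members had a summit in all 9 other libraries, and trunk chondrocyte replicate 3 had one in 93 members. The shares below therefore follow list length in part, and the rule limits the ranks of the other groups. They were not computed for all held regions or for the other sets, so how much of them the rule alone gives is unknown. All 3 trunk osteoblast libraries ranked the member behind the worst of the 3 head osteoblast ranks in 726 members (49.4%). All 3 head chondrocyte libraries did so in 1163 members (79.2%), and all 3 trunk chondrocyte libraries in 1215 (82.7%). In 627 members (42.7%) all 9 other libraries ranked the region behind every head osteoblast library or lacked a summit there. Without trunk osteoblast replicate 3 this number was 863 (58.7%). That library ranked 187 members (12.7%) at or before their median head osteoblast rank, whereas trunk osteoblast replicates 1 and 2 did so for 80 and 86.

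By the groups that also had a summit in at least 2 full lists, the members fell into a few kinds. All 3 other groups did so in 611 members (41.6%), trunk osteoblasts and head chondrocytes in 393 (26.8%), and trunk osteoblasts alone in 203 (13.8%). Head chondrocytes alone did so in 98 (6.67%), both chondrocyte groups in 38 (2.59%), trunk osteoblasts with trunk chondrocytes in 12 and trunk chondrocytes alone in 1. In 113 members (7.69%) no other group had 2 libraries with a summit. This split follows list length in part, since trunk chondrocyte replicate 3, with 8407 summits, had one in 6.33% of the members. It was not computed for all held regions or for the other sets. The other group with the best second best rank was the trunk osteoblasts in 908 members (61.8%), the head chondrocytes in 374 (25.5%) and the trunk chondrocytes in 74 (5.04%).

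Since the choice of the members used all 12 libraries, a look-up in unused libraries needed other sets. Regions were chosen by the same rule from the libraries of 2 replicate numbers, with both libraries of a group needed, and were then sought in the libraries of the number left out. Of the 1315, 1273 and 1452 regions so chosen, 934, 833 and 932 were also members. The held-out head osteoblast library had a kept summit in 908 of 1315 regions (69.0%, exact 95% interval 66.5 to 71.5%) with replicate 1 left out. It had one in 983 of 1273 (77.2%, 74.8 to 79.5%) with replicate 2 left out and in 1042 of 1452 (71.8%, 69.4 to 74.1%) with replicate 3 left out. The held-out trunk osteoblast library had one in 29.4%, 37.2% and 56.3% of the same regions. Head chondrocyte libraries had one in 11.3%, 11.9% and 16.7%, and trunk chondrocyte libraries in 9.96%, 6.91% and 10.7%.

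Regions chosen as head osteoblast regions were thus found again in the head osteoblast library left out in 72.7 ± 4.16% of cases (SD, n = 3). The trunk osteoblast library left out had them in 41.0 ± 13.8%, the head chondrocyte library in 13.3 ± 3.00% and the trunk chondrocyte library in 9.21 ± 2.02% (SD, n = 3 each). The 3 head osteoblast values lay above all 9 others, and the trunk osteoblast values lay above all 6 chondrocyte values. Trunk osteoblast replicate 3, at 56.3%, was the closest to the head osteoblasts. For comparison, the held-out libraries had a kept summit in between 54.3% and 66.0% of all regions held by any group in the other replicates. The chosen regions had to be kept in both other libraries of their own group, so this is not a like background for the head osteoblast values. The share for all regions of the same group was not computed. The 72.7% is therefore not read as above or below a background. By another measure, 76.8% of all regions that head osteoblasts held had a kept summit in all 3 head osteoblast libraries, against 41.9% of the members. For the other sets held by 1 group alone, the like share in the group's own libraries was 30.3% to 44.5%. No p is given, because the 3 choices share libraries, and the intervals cover counting error only. Chosen in the same way, trunk osteoblast regions were found again in 59.6 ± 12.3% of cases in trunk osteoblasts and in 31.7 ± 7.37% in head osteoblasts (SD, n = 3 each). Regions chosen for head chondrocytes were found again in head chondrocytes in 75.4 ± 8.89% and in trunk chondrocytes in 42.8 ± 16.4%. Those chosen for trunk chondrocytes were found again in trunk chondrocytes in 60.9 ± 16.6% and in head chondrocytes in 30.5 ± 15.6%.

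**Figure D4:**
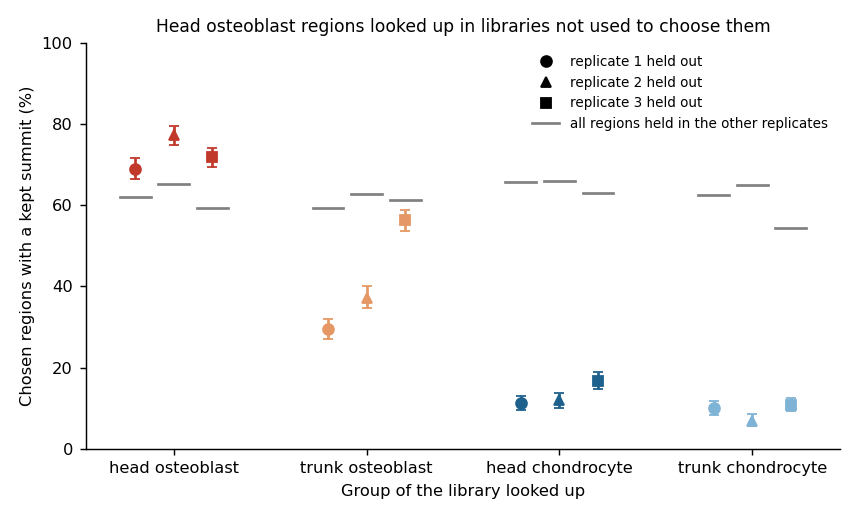
Share of regions with a kept summit (y axis, percent) in the library left out of the choice, for regions chosen as held by head osteoblasts alone from the other replicates, by group of that library (x axis). Symbols mark the replicate left out, error bars are exact 95% binomial intervals, and grey bars show the share among all regions held by any group in the other replicates. The grey bars are not a like background for head osteoblasts, since the chosen regions had to be kept in both other head osteoblast libraries. Head osteoblast values run between 69.0% and 77.2% and chondrocyte values between 6.91% and 16.7%.

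The strongest members showed how differently the other groups could be placed. The region with the lowest mean rank lay on chromosome 8 from 25198968 to 25199004 (GRCz11), with ranks of 1771, 975 and 1382 in head osteoblast replicates 1, 2 and 3. Trunk osteoblast replicates 1, 2 and 3 had it at 9958, 8938 and 2123, and no chondrocyte library had a summit there. Only trunk osteoblast replicate 3 kept it, at a rank close to those of the head. The region on chromosome 21 from 9500339 to 9500519 had ranks of 971, 1007 and 2235 in head osteoblasts and of 11372, 9547 and 1854 in trunk osteoblasts. All 6 chondrocyte libraries had a summit in it, with ranks of 12724, 17368 and 21200 in head chondrocytes and of 16848, 11012 and 8005 in trunk chondrocytes. It was thus called in every library, and its kept summits lay in the 3 head osteoblast libraries and in 1 library each of the trunk groups.

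The regions at 7746851 to 7747028 of chromosome 7 and at 47063946 to 47064278 of chromosome 19 had a similar order. The first had ranks of 1369, 1506 and 1847 in head osteoblasts and of 9014, 13675 and 1959 in trunk osteoblasts. The second had ranks of 1046, 1347 and 2816 in head osteoblasts and of 8445, 10500 and 2321 in trunk osteoblasts. In both, trunk osteoblast replicate 3 ranked the region among or near the head libraries while the other trunk osteoblast libraries had it beyond the cut. Chondrocyte summits were found in 3 head chondrocyte libraries for the first, with ranks of 26991, 11802 and 22456, and in 1 head and 1 trunk chondrocyte library for the second, at 19006 and 28692.

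A different order was seen on chromosome 24 from 41585891 to 41585958, with ranks of 1980, 1548 and 1781 in head osteoblasts. It was absent from trunk osteoblast replicates 1 and 2 and had a rank of 18980 in replicate 3. Head chondrocytes had it at 11201, 20521 and 12190, and trunk chondrocyte replicate 2 at 46129. At this region the head chondrocytes therefore came nearer to the head osteoblasts than the trunk osteoblasts did. The region on chromosome 23 from 2503 to 2610, at the very start of the assembled chromosome, had ranks of 2307, 1399 and 848 in head osteoblasts. Trunk osteoblasts had it at 9903, 4636 and 9362, with replicate 2 and not replicate 3 the one that kept it.

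Members with no chondrocyte summit in any full list numbered 133 (9.05%). Among all 2780 regions held by head osteoblasts and by no chondrocyte group, 147 (5.29%) had none, and 133 of these 147 were the members themselves. The rest of the 147 came from the 1311 regions held by both osteoblast groups alone. The share over all held regions was not computed. Of the 133 members, 56 were kept in all 3 head osteoblast libraries, and 127 had a summit in trunk osteoblast replicate 3. After the chromosome 8 region, the lowest mean rank among the 56 was on chromosome 2 from 25142273 to 25142310, with ranks of 1617, 2273 and 3973 in head osteoblasts. Trunk osteoblast replicate 1 lacked it, and replicates 2 and 3 had it at 11566 and 5284. The next, on chromosome 15 from 38737123 to 38737190, had ranks of 2318, 2111 and 4385 in head osteoblasts and of 15286 and 9653 in trunk osteoblast replicates 2 and 3. On chromosome 17 from 45038229 to 45038303, the head osteoblast ranks were 3928, 2534 and 2875, and trunk osteoblast replicate 3 alone of the other libraries had a summit, at 9451. These regions were called in osteoblast lists only, with the head ranks ahead in every library.

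Members with no trunk osteoblast summit in full lists numbered 15 (1.02%). The share over all held regions was not computed, so this number is not read as a trait of the members. Trunk osteoblast replicate 3 by itself had a summit in 97.7% of the members and in 93.6% of all held regions. All 3 trunk osteoblast lists lacked a summit in 221 of 990 regions of head chondrocytes alone and in 172 of 942 of trunk chondrocytes alone. Head chondrocytes had a summit in 7 of the 15 members. The strongest that was kept in all 3 head osteoblast libraries lay on chromosome 21 from 6466830 to 6466931, with ranks of 2576, 2755 and 2022. Head chondrocyte replicates 2 and 3 had it at 14904 and 12492, and trunk chondrocyte replicates 1 and 2 at 25609 and 36574. On chromosome 3 from 54718553 to 54718615 the head osteoblast ranks were 4991, 4449 and 3943. Head chondrocytes followed at 8932, 9151 and 10336, and trunk chondrocyte replicates 1 and 2 at 12052 and 7462. In both regions the summits outside head osteoblasts were in chondrocytes of both locations and in no trunk osteoblast list.

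The 5 members without any summit of the other groups were each kept in 2 of 3 head osteoblast libraries and were not among the strongest. The one on chromosome 18 from 29963922 to 29963946 had ranks of 4087 and 3485 in replicates 2 and 3 and was missing from the full list of replicate 1. The one on chromosome 9 from 30141197 to 30141287 had ranks of 5841, 9223 and 3063 in replicates 1, 2 and 3. Chromosome 17 held 2 of them, from 8687929 to 8688004 with ranks of 7995, 6137 and 10689, and from 49820474 to 49820528 with ranks of 6414, 7121 and 10640. The fifth, on chromosome 2 from 7473315 to 7473317, had ranks of 8203 and 5458 in replicates 2 and 3. No member was kept in all 3 head osteoblast libraries with every summit of the other groups more than 1000 bp away. With 2 libraries allowed, 3 members met that distance.

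The members were spread over all 25 chromosomes, with 1445 on chromosomes and 24 on other sequences of the assembly. They made up between 8.29% (chromosome 14, 35 of 422) and 15.0% (chromosome 11, 76 of 506) of the held regions of a chromosome. The exact 95% interval included 10.8%, the share over all held regions, for 24 of the 25 chromosomes. The exception was chromosome 11, at 12 to 18.4%. Its interval is 1 of 25 computed, and neighbouring regions are not independent, so it was not tested further.

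**Figure D5:**
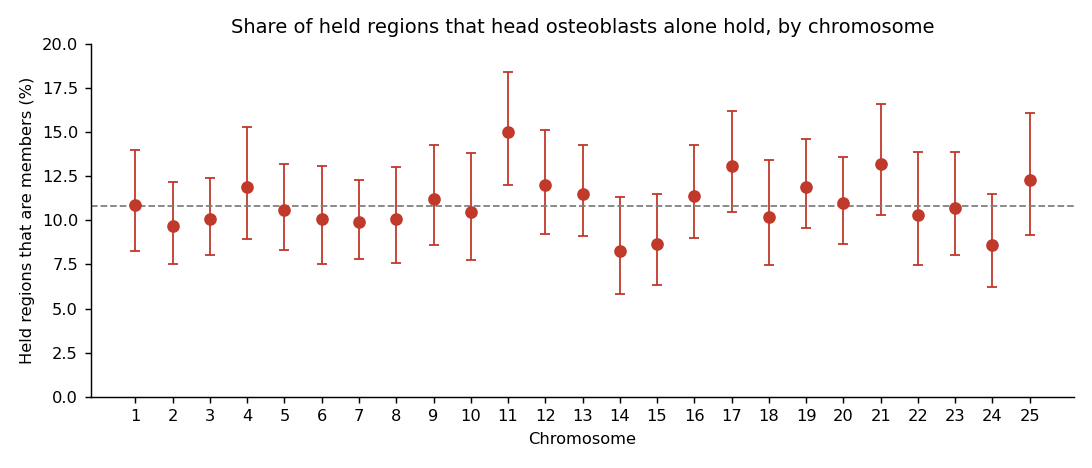
Share of the held regions of each chromosome that are held by head osteoblasts alone (y axis, percent, with exact 95% binomial intervals) for chromosomes 1 to 25 (x axis). The dashed line is the share over all held regions, 10.8%, and chromosome 11 stands at 15.0%.

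The median distance from a member to the nearest other member was 143 kb. Within the smaller sets it was 282 kb for trunk osteoblasts alone, 352 kb for head chondrocytes alone, 277 kb for trunk chondrocytes alone and 225 kb for both osteoblast groups alone. Such distances shrink as a set grows, so the sets were not ranked by them. The median distance from a member to the nearest region held by any other set of groups was 16.6 kb (quartiles 6.20 and 44.1 kb). Regions of trunk osteoblasts alone lay 15.1 kb from the nearest region of other kinds, those of head chondrocytes alone 19.3 kb, and those of trunk chondrocytes alone 14.1 kb (medians). Within 1000 bp of a region held by another group lay 76 members (5.17%), where a shift of the summit could place 1 peak in neighbouring regions. That share was 7.96% for trunk osteoblasts alone, 2.12% for head chondrocytes alone and 5.73% for trunk chondrocytes alone. Runs of members no more than 20 kb apart numbered 107 and included 222 members (15.1%), and 8 runs held 3 members. Runs were not counted for the other sets. Another member lay within 10 kb of 8.17% of the members. The like share was 9.23% for trunk osteoblasts alone, 4.14% for head chondrocytes alone, 5.84% for trunk chondrocytes alone and 8.16% for both osteoblast groups alone.

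Of 5844 windows of 100 kb with a held region, 1224 contained a member and 23 contained at least 3. The window with the most lay on chromosome 11 from 44700001 to 44800000, with 5 members among 13 held regions. Of the other 8 regions, 2 were held by all 4 groups and 5 by chondrocyte groups only, and none by the pair of osteoblast groups alone. The strongest member of this window, from 44781947 to 44782176, had ranks of 3615, 6558 and 5958 in head osteoblasts, of 17788, 14575 and 11878 in trunk osteoblasts and of 14341, 13127 and 11271 in head chondrocytes. It was beyond the cut in all 9 other libraries.

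On chromosome 19 from 33700001 to 33800000, all 4 held regions were members, spread over 41.6 kb. Among them, the region from 33732017 to 33732191 had ranks of 5649, 5146 and 7781 in head osteoblasts and of 16375, 14354 and 6924 in trunk osteoblasts. The region from 33759138 to 33759279 had ranks of 8980, 6020 and 5840 in head osteoblasts, and the only trunk osteoblast summit was at 52244 in replicate 3. These neighbours therefore differed in how near trunk osteoblasts came. On chromosome 21 from 37500001 to 37600000, 4 of 7 held regions were members. The region from 37575635 to 37575757 was the strongest, with ranks of 2741, 4606 and 3356 in head osteoblasts and of 15579, 13395 and 6447 in trunk osteoblasts. The region from 37560276 to 37560348 had ranks of 7069, 9481 and 7337 in head osteoblasts and 1 other summit, at 17597 in trunk osteoblast replicate 3.

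Where other groups had a summit in a member, its median distance from the head osteoblast summit was at most 33 bp in any pair of libraries. Between head osteoblast libraries the median distance between best summits in the members was 10 to 19 bp over the 3 pairs of libraries. Against head osteoblast summits it was 11 to 33 bp for trunk osteoblasts, 13 to 25 bp for head chondrocytes and 15 to 30 bp for trunk chondrocytes, over 9 pairs each. In regions held by all 4 groups, which are stronger, the distances were 5 to 9 bp among head osteoblasts and 5 to 15 bp against trunk osteoblasts. They were 5 to 11 bp against head chondrocytes and 6 to 20 bp against trunk chondrocytes. Chaining within 250 bp limits these distances. The members had a median width, from first to last summit, of 96 bp (quartiles 56 and 165 bp).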

How the data were processed

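ATAC-seq summit lists of 12 libraries, 3 in each of 4 groups, were analysed, with groups and replicate numbers from the sample titles. In 7 of the 12 lists the replicate number in the peak names differs from that in the title, which was used. The submitters' processing notes name the danRer11 (GRCz11) build and, without versions, MACS2, Bowtie2, fastp, deepTools, bedtools and SAMtools. Per the labels, enzyme volume and reaction time were adjusted to cell number, and replicate 1 of every group except head chondrocytes lost files and is represented from the alignment after read shifting. The deposited score is the authors' −log10 of a p-value or of a q-value (which one is not stated), and it was used only as a rank within a list. The score at rank 8407 ran between 1.31 and 172, and depth is unknown apart from list length, 8407 to 79517 summits. Each library has its own list of peaks, so replicates were not pooled.

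Members were found with Python 3.11.15, pandas 2.3.3 and numpy 2.4.6, and positions count from 1. Exact (Clopper-Pearson) 95% intervals came from scipy 1.17.1. The procedure was run on simulated lists of equal length with no missing summits. The deposited lists differ in both respects, so this checks the code only. The members and comparisons were chosen with earlier results of these data known. Named regions are those with the lowest mean rank, those next to the cut, and those in the 3 windows with most members. Those without a chondrocyte, a trunk osteoblast or any other summit, and the region on chromosome 5, were added after their values were seen. A planned set, kept in 3 of 3 libraries and clear of other summits by 1000 bp, was empty. Genes, motifs and sequences were not analysed here, because no sequence or annotation of this build was used.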

Additional observations from a re-analysis of the deposited data

How the results depend on the processing

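The number of members depended most on list length. It was 820 with the strongest 5000 summits per library, 3640 without trunk chondrocyte replicate 3 at 20380 summits, 11488 with all summits scoring at least 10, and 16647 with full lists. Of the 1469 members, 257, 237, 423 and 113 were also members under these settings, so the set is that of a given list length. Requiring 3 of 3 head osteoblast libraries left 615, and allowing no kept summit in any other library left 651. Leaving out each library in turn gave 833 to 1912 members, and shares without any other summit of 0.120% to 3.24%. The lowest values were without head osteoblast replicate 2 and the highest without trunk osteoblast replicate 3, and leaving out head osteoblast replicate 1 or 3 also lowered the number by over 1.5 times, to 934 and 932. A larger number without a library of the other groups follows from the rule, since both remaining libraries must then hold a region. The smaller numbers without a head osteoblast library follow from it as well, since they count the members kept in both remaining libraries. The libraries described without file loss gave 1211, of which 934 were among the 1469. Joining summits within 100 bp gave 1514 members and a share without other summits of 1.32%, the cause of which was not tested. The held-out share in head osteoblasts was 71.9% to 73.0% under the 3 alternatives run for it.

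No paired analysis was possible because no result here comes from a test and the numbers only name the libraries. The planned sequence and gene context and its alternatives were not run. Depth limits every absence, most of all in trunk chondrocyte replicate 3, whose whole list was used.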
